A study of Homo sapiens with 6 samples.

Results

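The visual cycle and retinoid enzyme genes were described here in Y79 cells, a human retinoblastoma cell line kept in culture as floating clusters. The 10 genes RPE65, RLBP1, LRAT, RDH5, RDH8, RDH10, RDH11, RDH12, RBP3 and DHRS3 were chosen by name, and 9 of them matched a row among the 17013 genes with values. LRAT, which encodes the enzyme that esterifies retinol, was not analysed here. Cells transduced with a MYCN-targeting shRNA (3 libraries) were compared with cells carrying a control shRNA (3 libraries). The labels call the first group a MYCN knockdown and the control group MYCN wild-type, give no other treatment, and place all 6 libraries in 1 batch. Poly(A)-selected RNA was sequenced from both ends, and the series text calls the replicates biological and independent. It does not say how many hairpins or transduced cultures were used, so the p-values measure the spread between these libraries.

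In the visual cycle, light turns the cis-retinal bound to opsin into all-trans-retinal, and enzymes of photoreceptors and of the retinal pigment epithelium turn it back. Photoreceptors reduce all-trans-retinal to retinol, the pigment epithelium esterifies retinol and isomerises the ester, and a dehydrogenase then restores cis-retinal. Related dehydrogenases also set how much retinol is turned into retinoic acid, the ligand of nuclear receptors that pattern the eye. Retinoblastoma cells are of photoreceptor lineage, and several of these genes normally belong to pigment epithelium or Müller glia.

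Libraries held 15490263 to 15762707 counts with MYCN shRNA and 15515994 to 16078416 with control shRNA. MYCN, the targeted gene, averaged 2297 ± 110 CPM (counts per 1e6, scaled by edgeR's TMM factors) with MYCN shRNA and 3016.5 ± 129 CPM with control shRNA (SD, n = 3 each), a log2 fold change of -0.39 ± 0.043 (SE), with an adjusted p of 8.0e-11 by edgeR's quasi-likelihood test. A gene was called where its p-value, adjusted over all 12819 genes tested, was below 0.05. By that rule 75.8% of all genes were called, 38.0% higher (4865 genes) and 37.9% lower (4857 genes) with MYCN shRNA. For 76.8% of genes the range of the MYCN shRNA libraries lay wholly above or below that of the control libraries. With library sizes as the only scaling, 6597 genes were higher and 3348 lower, and the median over all genes moved to 0.19, against 0.0046 with TMM scaling (log2 fold change). Markers of the photoreceptor lineage were present: the homeobox gene CRX averaged 278 CPM with MYCN shRNA and 217 CPM with control shRNA, and OTX2 averaged 680 CPM with MYCN shRNA and 1078 CPM with control shRNA.

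Of the 9 genes in the table, 6 had enough counts to be tested, and 3 of these were higher with MYCN shRNA (RPE65, RBP3 and RDH10), 1 was lower (RDH11) and 2 were not called (RDH5 and RDH8). The ranges of the groups were separate for 4 of the 6 tested genes. Neither 4 of 6 called nor 4 of 6 separate is a larger share than that of all genes given above, so the count is not a result about these genes. The 3 genes left out by the filter on low counts, RLBP1, RDH12 and DHRS3, are given by their counts. Summed over the 9 genes, the level was 364 to 368 CPM with MYCN shRNA and 262 to 277 CPM with control shRNA. RBP3 made up most of this sum, at a mean of 275 CPM with MYCN shRNA and 169 CPM with control shRNA, so the sum mainly follows RBP3. These are bulk libraries, in which a changed share of cells of a type and a changed RNA content per cell cannot be told apart.

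**Figure D1:**
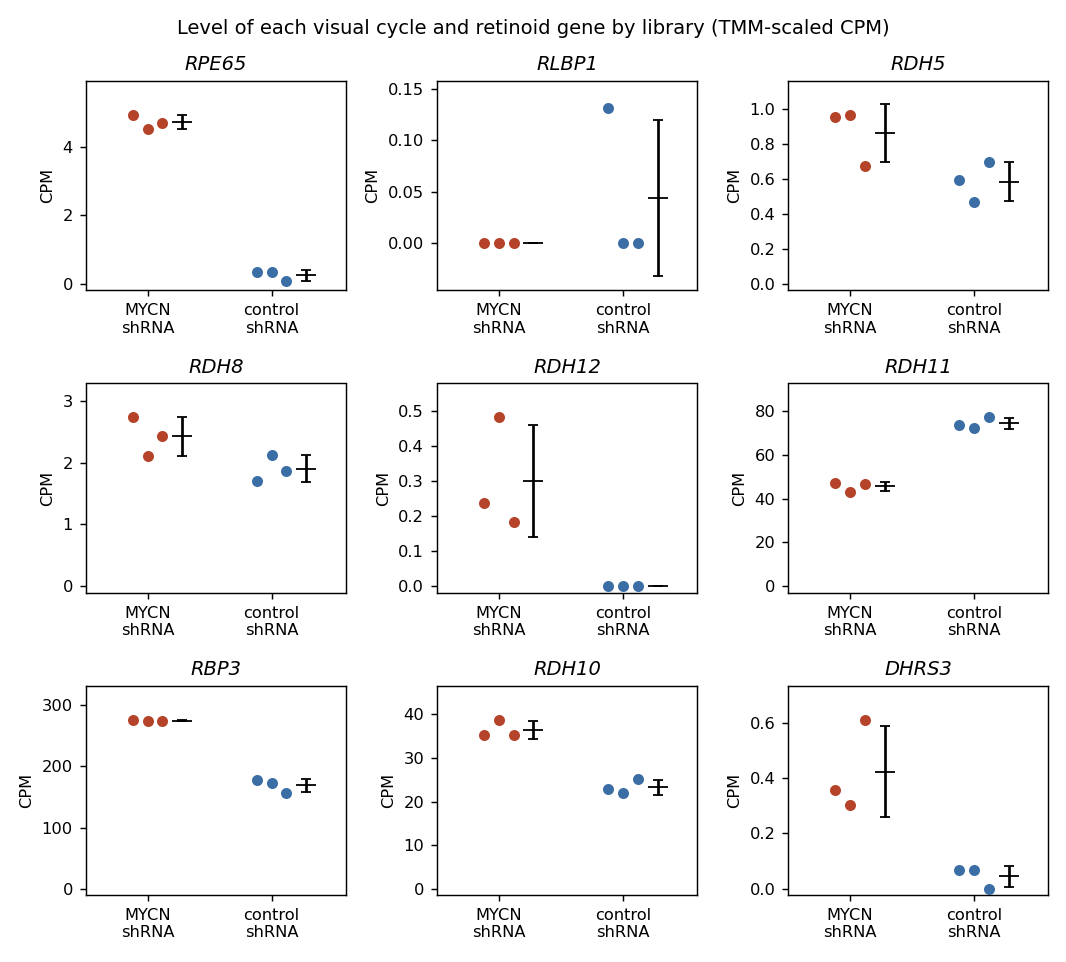
Level of each of the 9 genes in CPM (vertical axes, each from about 0) in the 3 MYCN shRNA libraries (left, red) and the 3 control shRNA libraries (right, blue), with the mean and SD beside the points in black. RPE65 stood at 4.52 to 4.94 CPM with MYCN shRNA and at 0.0693 to 0.333 CPM with control shRNA, while RDH11 was lower with MYCN shRNA in all 3 libraries.

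RPE65 encodes the isomerase that turns all-trans-retinyl esters into cis-retinol in the pigment epithelium, and it had the largest change of the 6 tested genes. It held 83, 75 and 77 counts in the MYCN shRNA libraries and 5, 5 and 1 counts in the control shRNA libraries. On the CPM scale it measured 4.94, 4.52 and 4.70 with MYCN shRNA and 0.328, 0.333 and 0.0693 with control shRNA. All 3 MYCN shRNA libraries thus lay far above the 3 control libraries, in which RPE65 held 5 counts or fewer. RPE65 rose 18.6-fold, with a 95% interval of 12.4 to 27.9 (log2 fold change 4.22 ± 0.289, SE; edgeR quasi-likelihood test, adjusted p = 6.6e-17). Summed per group, RPE65 held 235 counts with MYCN shRNA and 11 with control shRNA, a scaled ratio of 19.2 with an exact 95% counting interval of 10.5 to 38.9. RPE65 passed the filter on low counts only through its MYCN shRNA libraries (0 of 3 control libraries reached the minimum), so it had to differ to be tested. By log2 fold change RPE65 had rank 21 from the highest of the 12819 tested genes. The gene spans chr1:68428822-68449959 on the minus strand (GENCODE 29, GRCh38, as for all gene positions here) and overlaps no other annotated gene. Its neighbours on chromosome 1 did not move alike: the nearest tested gene at higher coordinates, DEPDC1, lies 24.2 kb away and was higher by 0.72 ± 0.051 on the log2 scale (adjusted p = 2.1e-16 by the same test), and WLS, 195.7 kb away on the other side, stood at -0.50 ± 0.042 (adjusted p = 3.9e-14).

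The 250 bases before the RPE65 start are shown because this gene had the largest change. They lie at chr1:68449955-68450204 on the minus strand (RefSeq, GRCh38.p14) and are written 5′ to 3′ in lower case. Capitals would mark CACGTG, the E-box that MYC proteins are known to bind, or TAATCC and its complement GGATTA, the core site of CRX and OTX2, but no match to these letters was found in them or in the 50 bases after the start.
RPE65: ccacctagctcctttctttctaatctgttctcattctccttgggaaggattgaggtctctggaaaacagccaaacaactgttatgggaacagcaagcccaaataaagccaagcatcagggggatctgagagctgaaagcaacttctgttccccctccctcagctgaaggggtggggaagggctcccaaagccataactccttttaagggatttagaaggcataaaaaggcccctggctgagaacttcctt

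RLBP1 and RDH5, also of the pigment epithelium side of the cycle, held few counts in both groups. RLBP1 (chr15:89209869-89221751, minus strand) encodes the cis-retinoid binding protein of pigment epithelium and Müller glia. It held 0 counts in all 3 MYCN shRNA libraries and 2, 0 and 0 counts in the control shRNA libraries. Both groups lie at or below 3 counts, so no fold is given. RDH5 (chr12:55720367-55724705, plus strand) encodes the dehydrogenase that oxidises cis-retinol to cis-retinal in the pigment epithelium. It held 16, 16 and 11 counts with MYCN shRNA and 9, 7 and 10 counts with control shRNA. On the CPM scale the groups overlapped, since the lowest MYCN shRNA library (0.671 CPM) lay below the highest control library (0.693 CPM). The log2 fold change of RDH5 was 0.56 ± 0.354 (95% interval -0.15 to 1.28; edgeR quasi-likelihood test, adjusted p = 0.146), so a change of up to 2.42-fold is within its error. RDH5 shares its locus on chromosome 12 with the readthrough gene BLOC1S1-RDH5, which was not analysed here, and with BLOC1S1, which ends 280 bases before RDH5 and stood at -0.63 ± 0.107 on the log2 fold change scale (adjusted p = 1.5e-06).

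RBP3 (chr10:47348371-47357875, plus strand) encodes the interphotoreceptor retinoid-binding protein, which photoreceptors secrete and which carries retinoids across the space between them and the pigment epithelium. Per kilobase of transcript it was the most abundant of the 9 genes. RBP3 held 4647, 4537 and 4511 counts with MYCN shRNA and 2712, 2583 and 2260 counts with control shRNA. Its level was 277, 274 and 275 CPM in the MYCN shRNA libraries and 178, 172 and 157 CPM in the control shRNA libraries. The groups were clearly apart, with little spread among the MYCN shRNA libraries. RBP3 rose 1.63-fold, with a 95% interval of 1.54 to 1.72 (log2 fold change 0.70 ± 0.041, SE; adjusted p = 4.3e-19 by edgeR's quasi-likelihood test). The next tested gene at higher coordinates on chromosome 10, ZNF488, lies 7.6 kb away and was lower, at -0.66 ± 0.078 (adjusted p = 5.4e-10).

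The retinal reductases of photoreceptors turn all-trans-retinal into retinol after light exposure. RDH8 (chr19:10013249-10022279, plus strand), the reductase of outer segments, held 46, 35 and 40 counts with MYCN shRNA and 26, 32 and 27 counts with control shRNA. The second MYCN shRNA library (2.11 CPM) lay just below the highest control library (2.13 CPM), so the groups overlapped. RDH8 had a log2 fold change of 0.35 ± 0.208 (95% interval -0.07 to 0.77; edgeR quasi-likelihood test, adjusted p = 0.121). Scaled by library sizes alone it passed the threshold, at 0.53 (adjusted p = 0.0196). RDH12 (chr14:67701886-67734452, plus strand), the reductase of inner segments, held 4, 8 and 3 counts with MYCN shRNA and 0 counts in all 3 control shRNA libraries. Set against the 3 counts that 0 allows over the control group, the scaled ratio of RDH12 was 4.49, and the exact 95% counting interval, which also covers the error of the 15 counts with MYCN shRNA, had a lower limit of 3.22. An exact two-sided permutation test over the libraries gave p = 0.1, the smallest that 3 against 3 allows and the value that any separate libraries give. Without the filter on low counts its edgeR adjusted p was 3.7e-04, and by DESeq2 it was 0.0060. Part of RDH12 on chromosome 14 overlaps ZFYVE26 on the opposite strand, which was called higher (log2 fold change 0.83, adjusted p = 5.9e-15, edgeR). The strand setting of the counting is not given in the sources used here, so reads in the shared stretch cannot be told apart.

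RDH11 (chr14:67676801-67695814, minus strand), a retinal reductase found in many tissues as well as in the retina, was the only one of the 6 tested genes that fell. It held 791, 715 and 764 counts with MYCN shRNA and 1120, 1086 and 1113 counts with control shRNA. Its level was 47.1, 43.1 and 46.6 CPM in the MYCN shRNA libraries and 73.5, 72.4 and 77.2 CPM in the control shRNA libraries. No MYCN shRNA library came near the lowest control library. The log2 fold change was -0.71 ± 0.053 (95% interval -0.81 to -0.60; edgeR quasi-likelihood test, adjusted p = 9.5e-16), or 1.63-fold lower, and its rank was 1373 from the lowest of the tested genes. RDH11 and RDH12 lie next to each other on chromosome 14, 6.1 kb apart and on opposite strands, and their counts differed in opposite directions. RDH11 also shares its span with AL049779.1, which was not analysed here. The tested gene on its other side, VTI1B, lies 2.0 kb away and was not called (0.04 ± 0.048, adjusted p = 0.512), though it was called higher when scaled by library sizes alone (0.22).

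The 250 bases before the RDH11 start are shown because RDH11 was, among the called genes with a promoter entry, the only one with a match to the letters searched. They lie at chr14:67695765-67696014 on the minus strand (RefSeq, GRCh38.p14), and the capitals mark GGATTA, which begins 149 bases before the start.
RDH11: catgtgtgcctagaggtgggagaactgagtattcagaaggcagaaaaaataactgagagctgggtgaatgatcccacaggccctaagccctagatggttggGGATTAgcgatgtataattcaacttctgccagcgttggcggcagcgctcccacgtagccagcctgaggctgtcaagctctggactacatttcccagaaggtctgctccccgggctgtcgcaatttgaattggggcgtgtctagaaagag
Promoter entries of 300 bases were found for 7 of the 10 genes, which left RDH10, RDH12 and RBP3 without one. CACGTG was found in none of the 7, and in 7.26% of all 35116 promoters in the RefSeq table. TAATCC or GGATTA was found in RDH11 and in RLBP1, where it begins 61 bases before the start, and in 6.36% of all promoters or 7.81% of genes. CACGTG reads the same on both strands and was searched once, TAATCC and GGATTA are complements of each other, and neither motif overlaps the other. DHRS3 had 3 starts in the table and a match at none.

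RDH10 and DHRS3 act on the retinol side of retinoic acid synthesis, in opposite directions. RDH10 (chr8:73294612-73325281, plus strand), which oxidises retinol to retinal and so feeds retinoic acid synthesis, held 592, 643 and 577 counts with MYCN shRNA and 348, 328 and 363 counts with control shRNA. It measured 35.2, 38.8 and 35.2 CPM in the MYCN shRNA libraries and 22.8, 21.9 and 25.2 CPM in the control shRNA libraries, with no overlap. RDH10 rose 1.56-fold, with a 95% interval of 1.42 to 1.72 (log2 fold change 0.65 ± 0.068; edgeR quasi-likelihood test, adjusted p = 2.2e-11). The start of RDH10 overlaps the ribosomal protein gene RPL7 on the opposite strand, which was lower, at -0.53 (adjusted p = 6.7e-14). RDH10 also shares its span with RDH10-AS1 on the opposite strand, which was not analysed here. Reads in these shared stretches cannot be told apart either, as the strand setting of the counting is not given. DHRS3 (chr1:12567910-12617731, minus strand), which reduces retinal back to retinol, held 6, 5 and 10 counts with MYCN shRNA and 1, 1 and 0 counts with control shRNA. Its 21 counts with MYCN shRNA and 2 with control shRNA give a scaled ratio of 9.42 with an exact 95% counting interval of 2.30 to 82.9. The libraries did not overlap, which was so for 76.8% of all genes tested. The exact two-sided permutation test gave p = 0.1, the smallest possible, which only restates that the libraries were separate. Without the filter its edgeR adjusted p was 9.4e-04, and by DESeq2 it was 0.0216.

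**Figure D2:**
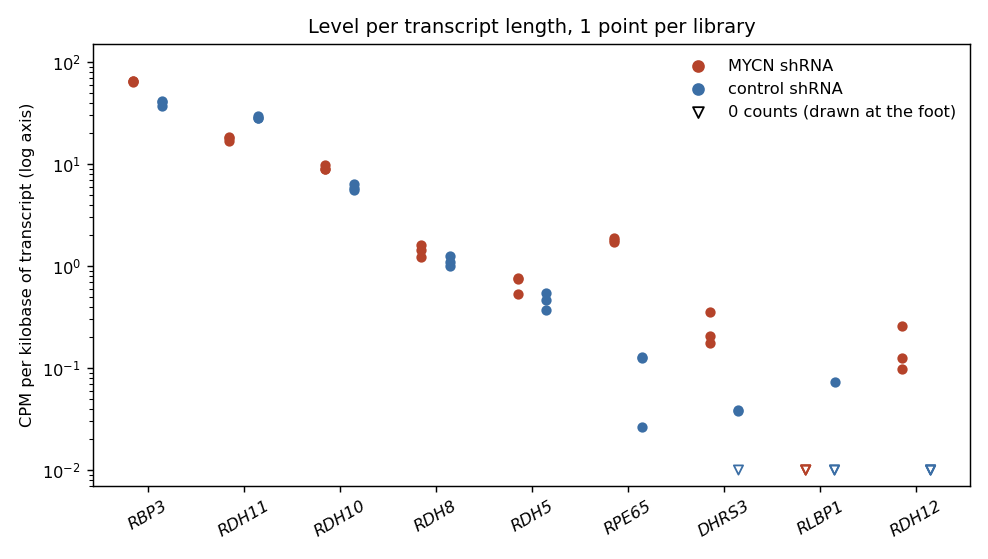
Level in CPM per kilobase of transcript (log axis) of the 9 genes, 1 point per library, MYCN shRNA in red to the left of control shRNA in blue, with libraries at 0 counts drawn as open triangles at the foot. Genes are ordered by their mean with control shRNA, and RPE65 is the gene whose place among the others differed most between the groups.

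Levels of different genes were set against each other only per kilobase of 1 protein-coding transcript per gene (GENCODE 29). With MYCN shRNA the order from the top was RBP3 (64.3 ± 0.335 CPM per kilobase), RDH11 (17.6 ± 0.833), RDH10 (9.22 ± 0.522), RPE65 (1.81 ± 0.0799), RDH8 (1.42 ± 0.183), RDH5 (0.680 ± 0.131), DHRS3 (0.246 ± 0.0955), RDH12 (0.160 ± 0.0848) and RLBP1 at 0 (SD, n = 3 each). With control shRNA it was RBP3 (39.5 ± 2.58 CPM per kilobase), RDH11 (28.7 ± 0.958), RDH10 (5.90 ± 0.428), RDH8 (1.11 ± 0.126), RDH5 (0.460 ± 0.0894), RPE65 (0.0934 ± 0.0579), DHRS3 (0.0256 ± 0.0222), RLBP1 (0.0242 ± 0.0419) and RDH12 at 0. RPE65 stood above RDH8 in every MYCN shRNA library, at 1.73 to 1.89 against 1.23 to 1.596 CPM per kilobase. It stood below RDH5 in every control library, at 0.0266 to 0.128 against 0.368 to 0.546 CPM per kilobase. RBP3, RDH11 and RDH10 did not overlap with their neighbours in this order in either group. The lowest places overlapped: DHRS3 with RDH12 with MYCN shRNA, and RPE65, DHRS3 and RLBP1 with control shRNA, where DHRS3 and RLBP1, like RDH12, also had libraries at 0.

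**Figure D3:**
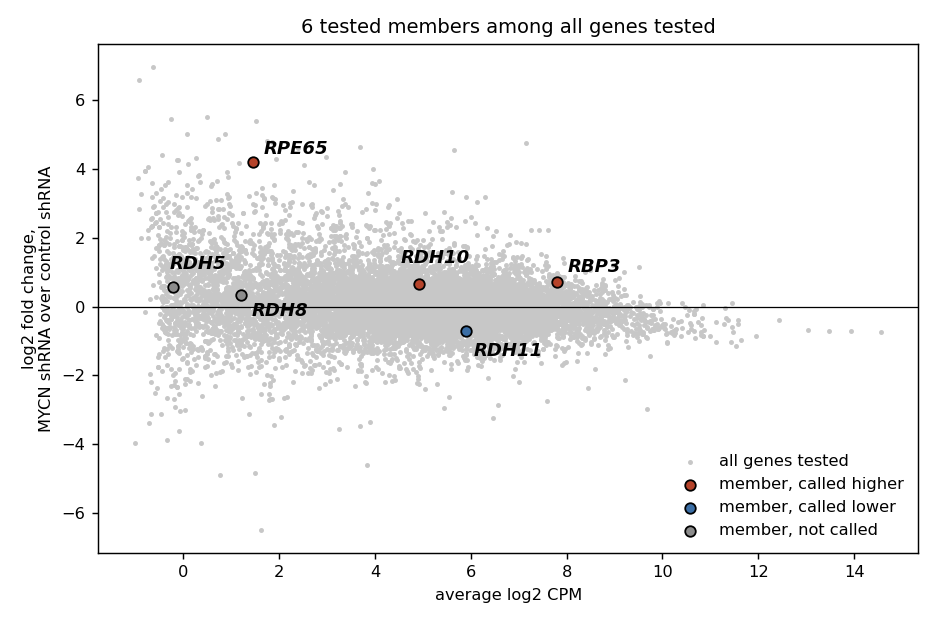
Log2 fold change of MYCN shRNA over control shRNA (vertical axis) against the average log2 CPM (horizontal axis) for the 12819 genes tested (grey), with the 6 tested visual cycle and retinoid genes marked by their call. RPE65, at 4.22, lies near the upper edge, while the other 5 lie between -0.71 and 0.70 within the bulk of genes.

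By likeness of the 6-library profile (the root-mean-square difference of log2 CPM, each gene centred on its own mean), the genes nearest to RPE65 were ELF3 (0.143), FBXL7 (0.149) and ATXN1 (0.180). ELF3, an epithelial transcription factor gene, averaged 23.5 CPM with MYCN shRNA and 3.26 CPM with control shRNA. The genes nearest to RBP3 were CHPF2 (0.0164), MEX3D (0.0290) and HADHB (0.0293), and HADHB, which encodes a subunit of the mitochondrial trifunctional protein, averaged 146 CPM with MYCN shRNA and 91.1 CPM with control shRNA. With 2 groups of 3 libraries such likeness mainly restates the difference between groups.

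A list of 48 other retinoid genes was read alongside, of which 42 had a row and 28 were tested. In that list 13 were higher and 9 lower with MYCN shRNA and 6 were not called, with a median log2 fold change of 0.18 against 0.0046 over all genes tested. Read beside the 38.0% higher and 37.9% lower among all genes, these counts say nothing particular about the list. DHRS9, SDR16C5, ADH4, CES1, ALDH1A2 and CYP26C1 were not analysed here. The 14 left out by the filter were RDH16, ADH7, AWAT2, RGR, LPL, RBP7, TTR, LRP2, ALDH1A1, CYP26A1, STRA8, TGM2, RARRES1 and RARRES2.

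Genes of retinoid uptake and binding differed in both directions. STRA6, the membrane receptor that takes up retinol, averaged 62.8 ± 2.01 CPM with MYCN shRNA and 31.1 ± 1.26 CPM with control shRNA (log2 fold change 1.01 ± 0.057; edgeR quasi-likelihood test, adjusted p = 7.4e-20). CRABP2, which carries retinoic acid to its receptors in the nucleus, averaged 194 ± 6.32 CPM with MYCN shRNA and 491 ± 16.4 CPM with control shRNA (-1.34 ± 0.040, adjusted p = 3.2e-29), at rank 300 from the lowest of the tested genes. SCARB1, a scavenger receptor that takes up carotenoids, also fell, by 0.53 (adjusted p = 1.2e-09). RBP4, the retinol carrier of blood, was called higher (3.75, adjusted p = 3.4e-06), with 13, 12 and 10 counts with MYCN shRNA and 1, 0 and 1 counts with control shRNA. CD36 was called higher as well (2.51, and 2.18 to 3.15 over 14 alternatives of the processing). It held 33, 24 and 21 counts with MYCN shRNA and 2, 7 and 3 counts with control shRNA. Both RBP4 and CD36 passed the filter only through their MYCN shRNA libraries, and CRABP1 was not called (0.01, 95% interval -0.70 to 0.71).

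Of 6 tested dehydrogenases and reductases outside the 10 genes, 1 rose and 4 fell, beside 38.0% higher and 37.9% lower among all genes. DHRS7, a short-chain dehydrogenase that can reduce retinal in vitro, averaged 88.1 ± 1.82 CPM with MYCN shRNA and 45.9 ± 3.19 CPM with control shRNA (log2 fold change 0.94 ± 0.052; edgeR, adjusted p = 6.8e-20). RDH13 (-0.50, adjusted p = 1.1e-05), RETSAT (-0.32), RDH14 (-0.30) and ADH5 (-0.20) fell. Scaled by library sizes alone, RDH14 and ADH5 were not called (adjusted p = 0.160 and 0.626). DHRS4 was not called (-0.03, 95% interval -0.31 to 0.25), and its counts are uncertain because DHRS4L2 is a near-identical copy. DHRS4L2 itself held 66 counts with MYCN shRNA and 30 with control shRNA and was called higher (0.97, edgeR adjusted p = 0.0051). ABCA4, the photoreceptor transporter that clears retinal from disc membranes, rose to 5.99 ± 0.518 CPM with MYCN shRNA, against 3.997 ± 0.647 CPM with control shRNA (0.58 ± 0.146, adjusted p = 4.8e-04). Of the carotenoid-cleaving enzymes, BCO2 fell (-1.35 ± 0.359, adjusted p = 9.0e-04, with 1 MYCN shRNA library and 3 control libraries at the filter's minimum) and BCO1 was not called (0.13), nor was the esterifying enzyme DGAT1 (-0.16, adjusted p = 0.0679). DGAT1 passed the threshold without MYCN shRNA replicate 3 (-0.20, adjusted p = 0.0452) and without control shRNA replicate 2 (-0.21, adjusted p = 0.0282).

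**Figure D4:**
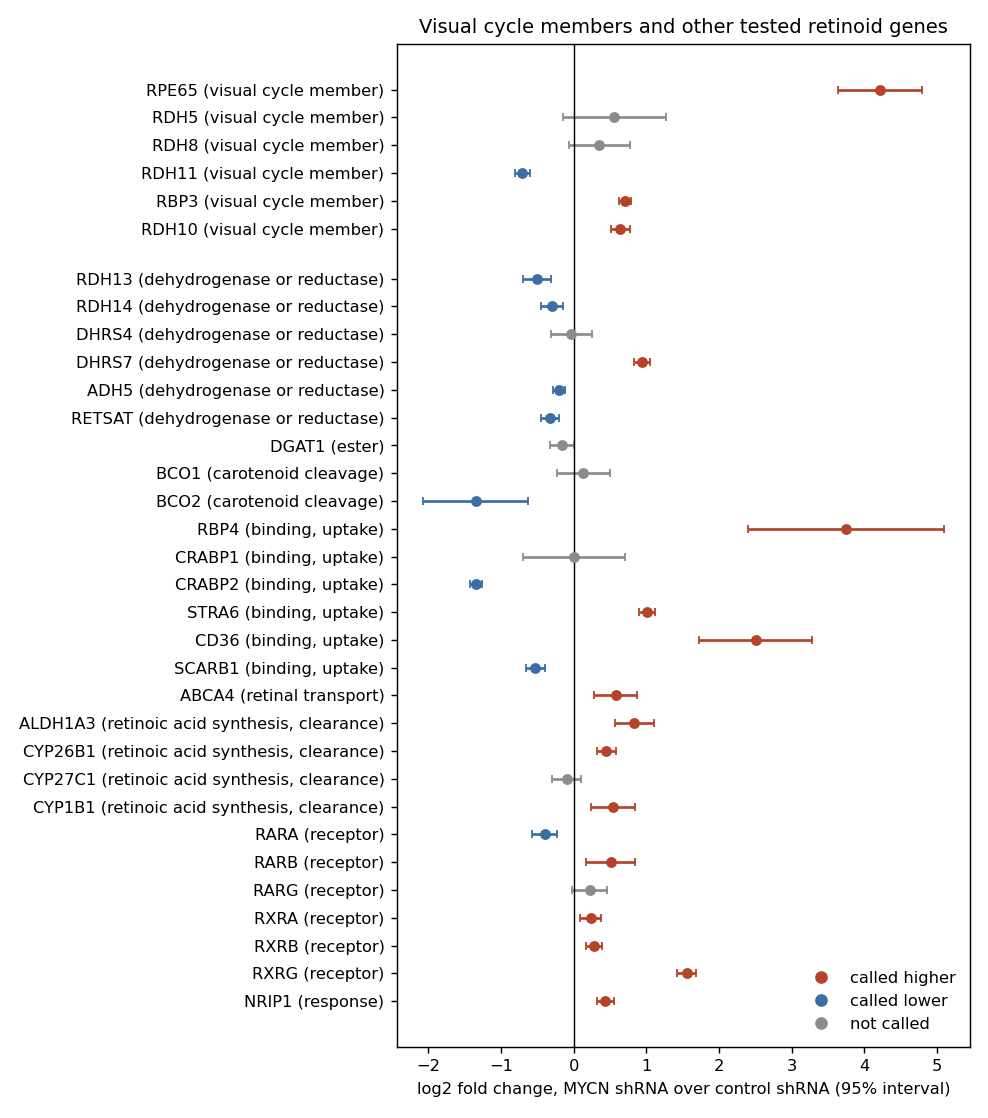
Log2 fold change of MYCN shRNA over control shRNA (horizontal axis) with its 95% interval for the 6 tested visual cycle and retinoid genes (top) and other retinoid genes tested (below, with their role). Red marks genes called higher, blue genes called lower and grey genes not called; RPE65 at 4.22 and RBP4 at 3.75 are highest, and CRABP2 at -1.34 and BCO2 at -1.35 are lowest.

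Among genes of retinoic acid synthesis, clearance and reception, 10 were tested and 8 were called, 7 of them higher, beside 75.8% called and 38.0% higher among all genes. ALDH1A3, which makes retinoic acid from retinal, averaged 8.97 ± 0.940 CPM with MYCN shRNA and 5.03 ± 0.817 CPM with control shRNA (log2 fold change 0.84 ± 0.131; edgeR, adjusted p = 2.8e-07). CYP26B1, which breaks retinoic acid down, averaged 38.1 ± 2.43 CPM with MYCN shRNA and 27.9 ± 0.841 CPM with control shRNA (0.45, adjusted p = 3.1e-08), and CYP1B1 was at 0.54. The receptor gene RXRG, a marker of developing cones, averaged 64.6 ± 3.17 CPM with MYCN shRNA and 21.96 ± 2.13 CPM with control shRNA (1.56 ± 0.064, adjusted p = 1.6e-24). RXRB (0.28), RXRA (0.24) and RARB (0.51) rose and RARA fell (-0.40, adjusted p = 7.9e-05). The call of RARB was lost without control shRNA replicate 2, at 0.30 (adjusted p = 0.104), and by DESeq2 (adjusted p = 0.0534). RARG (0.22, adjusted p = 0.0894, but called with upper-quartile scaling and with library sizes alone) and CYP27C1 (-0.10) were not called, and NRIP1, a corepressor gene induced by retinoic acid, rose (0.44, adjusted p = 9.9e-09).

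Markers of the cell types that normally hold the visual cycle genes are given beside RPE65, and their part in its change was not tested. Of 15 pigment epithelium markers 6 were tested, 2 of them higher and 2 lower, beside 38.0% higher and 37.9% lower among all genes. The list summed to 494 to 508 CPM with MYCN shRNA and 799 to 813 CPM with control shRNA. The pigment enzyme gene TYRP1 was at 0 in all 6 libraries, and TYR was not analysed here. DCT, another pigment enzyme gene, made up much of the sum and was not called, at 332 ± 9.90 CPM with MYCN shRNA and 340.2 ± 13.2 CPM with control shRNA (-0.03, adjusted p = 0.438, edgeR), though it was called higher when scaled by library sizes alone (0.15). BEST1, a chloride channel gene of pigment epithelium, rose to 5.87 ± 0.630 CPM with MYCN shRNA, against 2.46 ± 0.0879 CPM with control shRNA (log2 fold change 1.25, edgeR adjusted p = 3.2e-09), while SERPINF1, which encodes a secreted neurotrophic factor, fell to 149 CPM with MYCN shRNA, against 450 CPM with control shRNA (-1.59, adjusted p = 1.2e-31). Nearly all of the difference between the list sums was that of SERPINF1, so the sums do not describe the list as a whole. CLDN19 rose (0.23, adjusted p = 0.0260) and OCA2 fell (-0.73, adjusted p = 0.0420), both close to the threshold. CLDN19 was not called by DESeq2 (adjusted p = 0.132) or, by edgeR, without MYCN shRNA replicate 1 (0.104), control shRNA replicate 1 (0.0695) or control shRNA replicate 3 (0.0677). OCA2 was not called without any 1 of the 3 MYCN shRNA libraries or without control shRNA replicate 1 or 2, with adjusted p of 0.0687 to 0.232. Of 13 Müller glia markers 9 were tested, 4 higher and 2 lower, beside the same shares of all genes. The glia list summed to 1539 to 1558 CPM with MYCN shRNA and 1603 to 1674 CPM with control shRNA. Most of this sum came from GLUL, PRDX6 and VIM, which differed in both directions. GLUL averaged 655 CPM with MYCN shRNA and 837 CPM with control shRNA, PRDX6 306 and 436 CPM, and VIM 528 and 329 CPM. The glia sums therefore do not describe that list as a whole. SOX2 was at 0 in all libraries, and AQP4 held 1 count with MYCN shRNA and 0 with control shRNA. SOX9 was not tested and held 44 counts with MYCN shRNA and 5 with control shRNA, with separate libraries and a scaled ratio of 7.89. VIM (0.68), CLU (0.98), DKK3 (3.92) and HES1 (1.68) rose and PRDX6 (-0.51) and GLUL (-0.35) fell. DKK3, with 158 counts with MYCN shRNA and 9 with control shRNA, passed the filter only through its MYCN shRNA libraries.

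Photoreceptor markers summed to 1821 to 1868 CPM with MYCN shRNA and 1300.0 to 1351 CPM with control shRNA. Of 16 markers 14 were tested, 13 were higher and 1 was lower, beside 38.0% higher and 37.9% lower among all genes. The median log2 fold change of the list was 1.498, against 0.0046 over all genes tested. That list was chosen with earlier results of these data known, so its direction is no independent evidence. PDE6H (1.89) and THRB (2.45) had the smallest p-values, and AIPL1 was the gene called lower (-0.11, adjusted p = 0.0089, edgeR), although it stood at 0.07 when scaled by library sizes alone. RBP3, RDH8 and RDH12 belong to the same cells and were left out of this list. RBP3 at 0.70 lay below the median of these markers on the log2 fold change scale, and RDH8 at 0.35 did as well, a difference that was not tested.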

How the data were processed

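The authors deposited estimated counts of reads for each gene symbol and library, with no scaling between libraries seen in the values. The submitters' processing notes name GRCh38 as the build, and TRIzol extraction and poly(A) selection are stated per the labels' protocols. Which aligner, counter, strandedness and gene models were used is not given in the sources used here. Of 17035 rows, 22 without values were left out. Library titles gave the groups and replicate numbers. Replicates were compared and were not identical (chi-square per degree of freedom 1.72 to 4.41 over genes with at least 50 counts).

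Estimated counts were rounded and tested with edgeR 4.0.16 (R 4.3.3; quasi-likelihood F-test, robust, TMM scaling, filterByExpr with its minimum of 10 counts), across 12819 genes with Benjamini-Hochberg adjustment. DESeq2 1.42.0 and limma-voom (limma 3.58.1), other scalings and filters, a replicate block and each library left out were alternatives. Count ratios carry exact 95% intervals that cover counting error only. Similar genes used a pseudocount of 0.5 CPM. Positions and transcript lengths came from GENCODE 29 (GRCh38) and promoters from RefSeq (GRCh38.p14). The edgeR steps were tested on simulated data. Python 3.11.15 with scipy 1.17.1 and matplotlib 3.10.9 was used. The rule named all members, every gene of the retinoid list with values for the 4 smallest p in each direction, 2 genes per direction of each marker list, overlapping and neighbouring genes, and the 3 most similar genes. Values of further genes of the retinoid list, of OTX2, CRX, DCT, DKK3, HES1 and SOX9, and of defining markers at or near 0 were added after they were seen. A gene of the retinoid list is counted but not reported here by name. The members and lists were chosen with earlier results of these data known.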

Additional observations from a re-analysis of the deposited data

How the results depend on the processing

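RPE65, RBP3 and RDH10 were called higher and RDH11 lower in each of the 14 alternatives run, with log2 fold changes of 3.80 to 4.49, 0.65 to 0.88, 0.60 to 0.83 and -0.73 to -0.52. RDH5 was not called in the 13 that tested it (it was left out at 1 CPM in 3 libraries), and RDH8 was called only with library sizes alone, at 0.53. Without the filter and by DESeq2, 5 members were called higher, RDH12 and DHRS3 being added because more genes were tested. The log2 fold change of RDH12 was 5.28 without the filter and 4.60 by DESeq2, and both values depend on how the fit treats a group at 0. RLBP1 was at 3 counts or fewer and was given no fold. Pigment epithelium markers called higher numbered 1 by DESeq2, 4 with library sizes alone and 1 to 3 with a library left out. Those called lower numbered 1 by DESeq2, limma-voom, upper-quartile scaling, library sizes alone, no filter and 1 CPM in 3 libraries, and 1 to 2 with a library left out. Photoreceptor markers called lower numbered 0 with upper-quartile scaling and with library sizes alone, and with library sizes alone AIPL1 reversed to 0.0726, as did the pigment gene DCT to 0.1481. The cause of these changes was not tested.

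With the replicate number as a block, 4967 genes were higher and 4939 lower, and no call changed among the 70 genes refitted by name. Deviations of same-numbered libraries correlated at 0.131, 0.115 and 0.0592 over 12819 genes, so the numbers were not taken as pairs. Depth limits RDH5, RDH12, DHRS3 and RLBP1, which held under 50 counts per group. It also limits the size of the RPE65 fold, since RPE65 held 11 counts over the control shRNA libraries.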

Other observations

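RDH and DHRS enzymes belong to the short-chain dehydrogenase family together with enzymes of steroid metabolism. Of 28 other genes with symbols starting RDH, DHRS, HSD17B or HSD11B, RDH13, RDH14, RDH16, DHRS4 and DHRS7 of the retinoid list included and chosen after the values of the 10 retinoid genes were seen, 25 were tested, 8 were higher and 7 lower with MYCN shRNA and 10 were not called (edgeR quasi-likelihood test, adjusted p below 0.05), beside 75.8% called, 38.0% higher and 37.9% lower among all genes. The median log2 fold change was -0.07. HSD17B3, which makes testosterone in the testis, averaged 5.20 CPM with MYCN shRNA and 0.536 CPM with control shRNA (log2 fold change 3.26, adjusted p = 1.4e-16), and it passed the filter only through its MYCN shRNA libraries. DHRS2 stood at 4.91 CPM with MYCN shRNA and 1.92 CPM with control shRNA (1.35, adjusted p = 2.4e-08). HSD11B2, which inactivates cortisol, averaged 7.49 CPM with MYCN shRNA and 28.5 CPM with control shRNA (-1.93, adjusted p = 1.6e-22). HSD17B8 (-1.35), HSD17B11 (-1.15) and DHRS11 (-0.91) were also lower.

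Among the retinoid genes that were not tested, AWAT2, which esterifies retinol in some tissues, held 17 counts with MYCN shRNA and 1 with control shRNA over 3 libraries each. RDH16 held 6 counts with MYCN shRNA and 20 with control shRNA, and LPL, a lipase that takes part in retinyl ester uptake, held 12 with MYCN shRNA and 51 with control shRNA. These genes were picked from the 14 left out by the filter after their counts were seen, and their differences were not tested.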
